A study of Mus musculus with 6 samples.

Results

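The genes examined were 10 components of the interleukin-17 (IL-17) receptor pathway and of its feedback in kidney fibroblasts. They comprised the receptor chains Il17ra and Il17rc, the adaptor Traf3ip2, the ubiquitin ligase Traf6, the transcriptional regulators Nfkbiz, Cebpb and Cebpd, the feedback enzymes Zc3h12a and Tnfaip3, and the target Lcn2. They were chosen by gene name for their known place in the pathway, and made up 10 of the 34745 genes in the deposited table. All 10 were present in the table, passed the filter on low counts and were tested, and the lowest count of any of them in a library was 51. The sequenced RNA came from primary renal fibroblasts of the mouse (genotype WT), matrix-producing cells grown out of enzyme-digested kidney. The groups held 3 libraries each, of fibroblasts kept alone (treatment none) or cocultured with Th17 cells, the helper T cells that secrete IL-17. In the coculture, fibroblasts that had attached for 6 h lay below a 0.4 μm insert holding induced Th17 cells for 24 h, so that the cells exchanged soluble factors without touching, and only the fibroblasts were harvested. The Th17 cells had been induced from CD4+ T cells with IL-1β, IL-6, IL-23 and an antibody to IFN-γ, so inducers carried over with the cells and what the cells secreted cannot be told apart. The methods do not say whether the lone fibroblasts had an insert without cells, or how long they were kept. An insert with another kind of T cell was not analysed here. The study's methods name Balb/c mice without tying them to these cultures, and age and sex were not given in the sources used here. Neither source ties the libraries to separate wells, cultures or animals, and every SD, SE and p given here measures only how these libraries differed, which may be technical.

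IL-17A and IL-17F bind a receptor made of the IL17RA and IL17RC chains, which is displayed by stromal and epithelial cells. The receptor recruits the adaptor encoded by Traf3ip2, which brings in TRAF6 and leads to NF-κB, to the C/EBP factors and to longer-lived messenger RNAs of inflammatory genes. The response is limited from within, because NF-κB induces the RNA-cutting enzyme encoded by Zc3h12a and the ubiquitin-editing enzyme encoded by Tnfaip3, and the nuclear IκB protein encoded by Nfkbiz works with C/EBP factors at targets such as Lcn2.

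Library totals lay between 12050529 and 13209581 counts in both groups, and the first principal component, with 76.8% of the variance, separated the groups. All 8 fibroblast markers were detected in both groups. Their summed level was 34100 to 35990 CPM (counts relative to a common library size, with TMM factors) in fibroblasts alone and 14240 to 15940 CPM with Th17 cells, with 7 markers lower and Dcn higher. T cell markers summed to 6.99 to 9.33 CPM in fibroblasts alone and 5.03 to 6.03 CPM with Th17 cells, and Cd3d, Ccr6, Il17a and Il17f had no count in any library. Lck and Trac made up most of both sums. Lck had 49, 68 and 59 counts alone and 33, 34 and 23 with Th17 cells, and was lower. Trac had 20, 40 and 38 counts alone and 41, 27 and 38 with Th17 cells, and did not pass the test. Macrophage markers summed to 58.4 to 61.1 CPM and 19.9 to 21.1 CPM, and Adgre1, Ptprc and C1qa had no count with Th17 cells. Of the 6 macrophage markers tested, 5 were lower, with Lyz2 (27.7 to 3.33 CPM on average) making up most of the difference, while Cd14 had 11.2 ± 0.501 CPM alone and 11.2 ± 1.68 CPM with Th17 cells (SD, n = 3 each). In RNA from whole cultures, fewer cells of a type and less RNA per cell cannot be told apart.

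The upstream sequences of 4 genes are shown: those of Zc3h12a and Lcn2, whose transcripts rose more than 2-fold, and those of Tnfaip3 and Il17rc, the genes with a κB-type match before the start among those of the 10 that had a promoter window. They are RefSeq sequences on build GRCm38.p6, cut to the bases before the start that lie outside annotated untranslated regions, 5′ to 3′ on the strand of the gene. Capitals mark a match to the κB pattern, which is GGG, any 3 bases and TTCC, on either strand.
Zc3h12a: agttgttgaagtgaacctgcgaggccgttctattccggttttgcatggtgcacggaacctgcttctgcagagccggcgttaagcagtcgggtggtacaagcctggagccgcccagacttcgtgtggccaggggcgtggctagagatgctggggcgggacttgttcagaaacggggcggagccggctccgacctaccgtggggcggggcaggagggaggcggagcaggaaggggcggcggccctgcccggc
Lcn2: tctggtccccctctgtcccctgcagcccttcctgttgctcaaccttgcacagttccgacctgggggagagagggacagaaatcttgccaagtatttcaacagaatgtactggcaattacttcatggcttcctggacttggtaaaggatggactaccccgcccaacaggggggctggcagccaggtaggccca
Tnfaip3: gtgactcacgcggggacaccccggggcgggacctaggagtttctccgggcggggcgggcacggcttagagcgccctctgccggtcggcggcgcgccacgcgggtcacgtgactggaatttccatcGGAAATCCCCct
Il17rc: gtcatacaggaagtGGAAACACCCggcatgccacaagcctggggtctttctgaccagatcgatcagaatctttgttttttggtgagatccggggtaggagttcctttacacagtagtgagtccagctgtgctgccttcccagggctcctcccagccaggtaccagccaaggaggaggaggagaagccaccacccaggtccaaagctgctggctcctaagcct
They lie at chr4:125127882-125128131 (minus strand), chr2:32387798-32387989 (minus strand), chr10:19015411-19015547 (minus strand) and chr6:113471205-113471426 (plus strand). The start is the one RefSeq gives. The Lcn2 and Tnfaip3 sequences, with the Tnfaip3 match marked, lie inside the spans given for these genes below, downstream of the 5′ ends of those spans. In Tnfaip3 the match GGAAATCCCC, which reads GGGGATTTCC on the other strand, occupies bases 12 to 3 before the start. In Il17rc the match GGAAACACCC lies 236 to 227 bases before it. Tnfaip3 had further matches that are not shown. They were GGAACTGCCC after the start in the same window, and GGGTTATTCC 90 to 81 bases before the start of its other window. Windows of 250 bases before and 50 after a start were found for 6 of the 10 genes (7 windows, with 2 for Tnfaip3), and 3 of these windows held the κB pattern. Of all 32851 windows of this length, 5.56% held it. The C/EBP pattern TTNNGCAAT, on either strand, was in none of the 7 windows and in 2.18% of all windows. Il17ra, Traf3ip2, Nfkbiz and Cebpd had no window. A match is a run of letters and not a measured binding site.

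To ask whether fibroblasts exposed to Th17 cells change the receptor pathway itself, its feedback or its output, the levels of the 10 genes were compared between the groups. Transcripts of 3 genes rose: Lcn2 by 4.20-fold, Zc3h12a by 2.16-fold and Cebpd by 1.33-fold. Of all 13088 genes tested, 17.1% rose at an adjusted p below 0.05 by edgeR's quasi-likelihood test, and 3.87% rose by more than 2-fold, as Lcn2 and Zc3h12a did. No gene of the 10 fell by edgeR (0 at an unadjusted p below 0.05, and 0 by DESeq2), against 20.0% of all genes (7.78% with a fall of more than 2-fold). The other 7, with both receptor chains, the adaptor and TRAF6 among them, did not pass the test. The median log2 fold change of the 10 genes was 0.05, and over all genes tested it was 0.0038. In 5 of the 10 genes (Il17rc, Traf3ip2, Cebpd, Zc3h12a and Lcn2) the CPM of the groups did not overlap, against 50.4% of all genes tested.

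**Figure D1:**
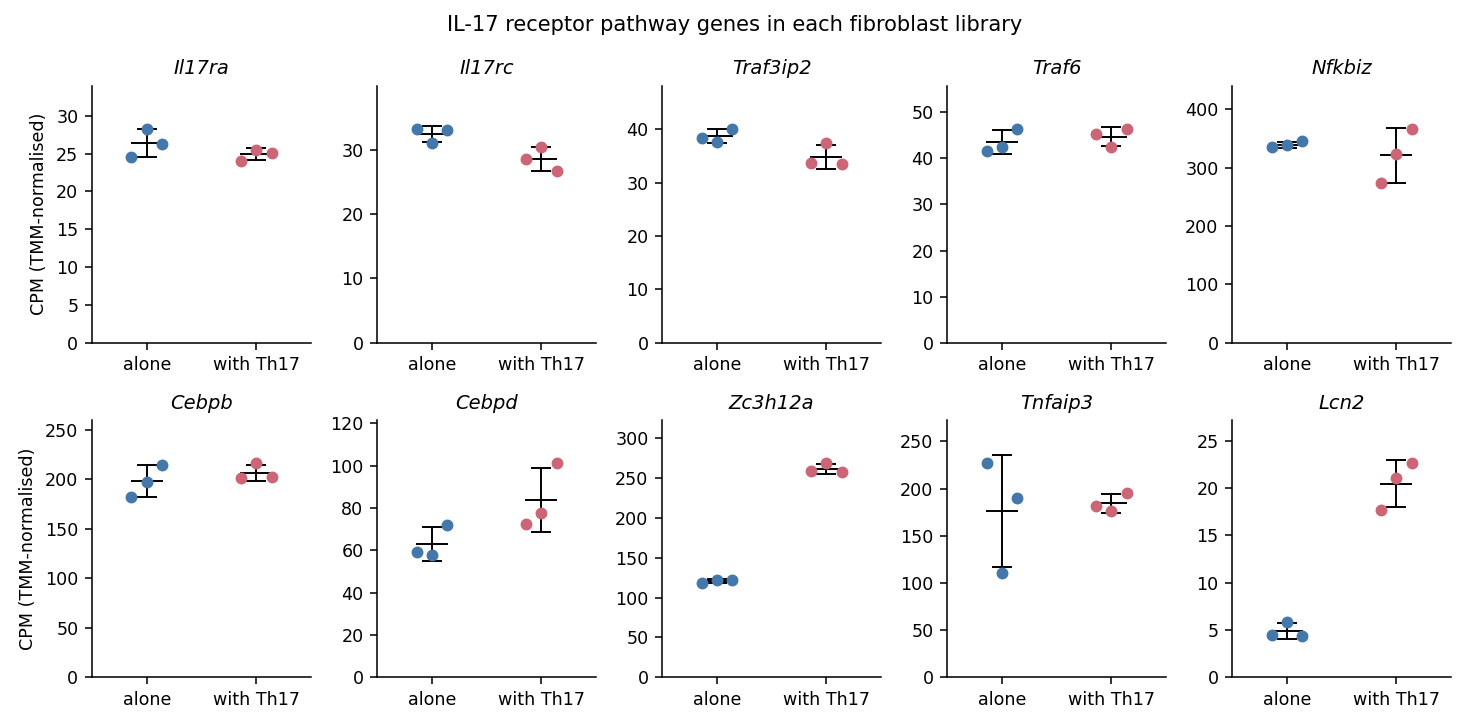
TMM-normalised CPM of each of the 10 genes (vertical axes, each starting at 0) in the 3 libraries of fibroblasts alone (blue) and the 3 with Th17 cells (red); points are libraries, the long bar is the mean and the short bars are the SD. The groups stand clearly apart for Zc3h12a (118.5 to 122.4 against 257.8 to 268.6 CPM) and Lcn2 (4.32 to 5.85 against 17.7 to 22.6 CPM), and 1 library of fibroblasts alone is low for Tnfaip3.

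The receptor chains showed no change past the test. Il17ra (ENSMUSG00000002897, chr6:120463247-120487559), the chain shared by several IL-17 family receptors, had 317, 358 and 310 counts in fibroblasts alone and 323, 325 and 330 with Th17 cells. The ranges in CPM overlapped, with means of 26.4 ± 1.85 (SD, n = 3) and 24.9 ± 0.781 CPM (SD, n = 3). Its log2 fold change was -0.08 (SE 0.092), with a 95% interval of 0.817 to 1.09 for the fold. Il17rc (ENSMUSG00000030281, chr6:113471427-113483140), the chain that pairs with it for IL-17A and IL-17F, had 428, 392 and 391 counts alone and 383, 387 and 351 with Th17 cells. All 3 cocultured libraries lay below the 3 others, at 28.6 ± 1.85 against 32.4 ± 1.26 CPM (SD, n = 3 each), but the difference did not pass the test (log2 fold change -0.18 with SE 0.0875, adjusted p = 0.132 by edgeR). The 95% interval of its fold was 0.767 to 1.01, and neither chain's interval reached 2-fold in either direction.

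The proximal signalling components were as close between the groups. Traf3ip2 (ENSMUSG00000019842, chr10:39612934-39655307) encodes the adaptor that joins the receptor to ubiquitin ligases, and had 493, 475 and 474 counts alone against 453, 476 and 439 with Th17 cells. Its cocultured libraries were all lower in CPM, at 34.9 ± 2.23 against 38.7 ± 1.31 (SD, n = 3 each), by less than the test required (log2 fold change -0.15 with SE 0.0822, adjusted p = 0.189 by edgeR). On the opposite strand it overlaps E130307A14Rik and Gm16365, which held 104 and 31 counts over the 6 libraries. Traf6 (ENSMUSG00000027164, chr2:101678429-101701669), the ligase that builds ubiquitin chains for the kinases of NF-κB, had 536, 537 and 549 counts alone and 609, 539 and 609 with Th17 cells. Its groups overlapped in CPM, and the fold was 1.03 (95% interval 0.906 to 1.16).

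Of the 3 transcriptional regulators, Cebpd alone passed the test. Nfkbiz (ENSMUSG00000035356, chr16:55811375-55838899) encodes IκBζ, a nuclear cofactor that IL-17 is known to induce. It had 4318, 4279 and 4079 counts in fibroblasts alone and 3668, 4119 and 4820 with Th17 cells. The cocultured libraries spread to both sides of the others, with 321.3 ± 47.1 against 339.6 ± 5.01 CPM (SD, n = 3 each), so that the SD was larger with Th17 cells. The log2 fold change was -0.08 (with SE 0.0969, adjusted p = 0.556 by edgeR), with a 95% interval of 0.812 to 1.10 for the fold. Leaving out cocultured replicate 1 gave 0.03 and leaving out cocultured replicate 3 gave -0.18, and the gene passed the test in neither case.

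Cebpb (ENSMUSG00000056501, chr2:167688915-167690418), a C/EBP factor that acts on acute-phase and cytokine genes, had 2343, 2495 and 2534 counts alone and 2698, 2747 and 2656 with Th17 cells. After scaling the groups overlapped, at 197.9 ± 16.2 and 206.3 ± 8.38 CPM (SD, n = 3 each), and the interval of the fold was 0.929 to 1.17. Cebpb overlaps Tmem189 on the opposite strand over 908 bases, and Tmem189 held 3210 counts over the 6 libraries. Cebpd (ENSMUSG00000071637, chr16:15887286-15888466), its relative and an early responder to cytokines, had 763, 728 and 851 counts alone and 972, 989 and 1328 with Th17 cells. Its groups did not overlap but came close, since the highest lone library had 72.0 CPM and the lowest cocultured library 72.3 CPM. The rise was 1.33-fold (log2 fold change 0.41 with SE 0.136, adjusted p = 0.0404 by edgeR). This call was lost without lone replicate 1 (0.37, edgeR adjusted p = 0.133), lone replicate 2 (0.36, adjusted p = 0.136), cocultured replicate 2 (0.46, adjusted p = 0.0554) or cocultured replicate 3 (0.26, adjusted p = 0.0926). The direction was the same each time.

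Among the feedback genes, Zc3h12a rose and Tnfaip3 did not pass the test. Zc3h12a (ENSMUSG00000042677, chr4:125118423-125127840) encodes an endoribonuclease of the Regnase family, which degrades messenger RNAs of cytokines and of Nfkbiz. Its counts were 1525, 1543 and 1446 in fibroblasts alone and 3473, 3416 and 3385 with Th17 cells. The libraries of each group lay close together and far from the other group, at 120.9 ± 2.16 and 261.6 ± 6.05 CPM (SD, n = 3 each). The log2 fold change was 1.11 (with SE 0.0562, adjusted p = 6.78e-07 by edgeR), the smallest SE among the 10 genes. The 95% interval of the fold, 1.98 to 2.36, reached just below 2, and the gene was called in all 14 alternative analyses, with log2 fold changes from 1.09 to 1.18.

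Tnfaip3 (ENSMUSG00000019850, chr10:19000910-19015657) encodes a ubiquitin-editing enzyme that restrains NF-κB. It had 2921, 1400 and 2252 counts in fibroblasts alone and 2437, 2242 and 2565 with Th17 cells. The second lone library, at 110.7 CPM, was the lowest of the 6 and the first lone library, at 226.9 CPM, the highest, so that the 3 cocultured libraries (176.3 to 195.3 CPM) lay inside the range of the others. The mean was 176.1 ± 59.5 CPM alone and 184.3 ± 9.86 CPM with Th17 cells (SD, n = 3 each). With a log2 fold change of 0.07 and the largest SE among the 10 genes, 0.21 (edgeR adjusted p = 0.838), the interval of the fold ran from 0.753 to 1.46. The log2 fold change was -0.18 without lone replicate 2 and 0.29 without lone replicate 1. It was positive in 13 of the 14 alternatives, and its sign turned only without lone replicate 2.

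**Figure D2:**
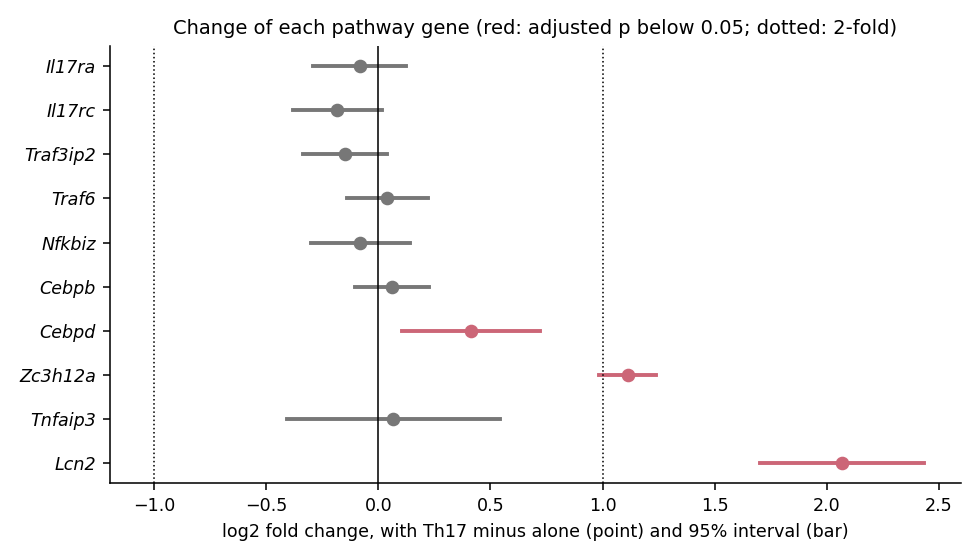
Log2 fold change of each of the 10 genes, with Th17 cells minus alone (horizontal axis), as points with 95% intervals from the edgeR fit over 3 libraries a group; red marks an adjusted p below 0.05 and dotted lines mark 2-fold. Lcn2 and Zc3h12a lie past the upper line, Cebpd lies between 0 and that line, and the intervals of the other 7 genes hold 0.

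Lcn2 (ENSMUSG00000026822, chr2:32384633-32388252), which encodes the siderophore-binding protein lipocalin-2 and is a widely used readout of IL-17 in stromal and kidney cells, changed most. It had 57, 74 and 51 counts in fibroblasts alone and 238, 268 and 297 with Th17 cells. The lowest cocultured library, at 17.7 CPM, lay far above the highest lone library, at 5.85 CPM, with means of 4.87 ± 0.856 CPM alone and 20.5 ± 2.51 CPM with Th17 cells (SD, n = 3 each). The log2 fold change was 2.07 (with SE 0.161, adjusted p = 1.18e-05 by edgeR), with a 95% interval of 3.26 to 5.41 for the fold. It was called in all 14 alternatives, with the lowest log2 fold change, 1.42, on the log2(FPKM + 1) scale, on which low values are compressed. Neutrophils and injured tubular epithelium also express this transcript. The 8 neutrophil markers summed to 1.26 to 2.03 CPM alone and 1.19 to 1.45 CPM with Th17 cells, and Ltf, Ngp, Elane and S100a9 had no count in any library. The 6 epithelial markers summed to 16.2 to 18.8 CPM alone and 2.74 to 4.25 CPM with Th17 cells, and Krt19 made up most of both sums. Krt19 fell from 15.4 ± 1.83 to 2.48 ± 0.582 CPM (SD, n = 3 each), Krt18 did not pass the test (log2 fold change -0.40, adjusted p = 0.441 by edgeR), and Epcam, Cdh1, Krt8 and Pax8 had at most 8 counts in a library and were not tested. The part of other cell types in the rise of Lcn2 was not tested.

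Levels of different genes were compared with the deposited FPKM, which divide by a gene length that was not stated. For Lcn2 the length implied by count and FPKM exceeds the span of the gene, so it is not a transcript length. The order across genes rests on these lengths and may differ from that of transcript abundance. In fibroblasts alone the order was Cebpb (128.6 ± 10.95 FPKM, SD, n = 3), Cebpd (52.2 ± 6.70), Nfkbiz (46.3 ± 0.83), Zc3h12a (38.5 ± 0.788), Tnfaip3 (12.3 ± 4.15), Il17rc (9.34 ± 0.366), Traf3ip2 (7.68 ± 0.282), Traf6 (4.87 ± 0.304), Il17ra (2.21 ± 0.157) and Lcn2 (0.977 ± 0.171). The regulators and feedback genes thus stood above the receptor and adaptor genes, and only Tnfaip3 and Il17rc, as neighbours in this order, overlapped between libraries. With Th17 cells Zc3h12a moved from the fourth to the second place, at 86.9 ± 1.51 FPKM, where its libraries overlapped those of Cebpd (72.5 ± 13.6 FPKM). Lcn2 moved past Il17ra in FPKM, at 4.29 ± 0.535 against 2.18 ± 0.0653, though not in CPM (means of 20.5 and 24.9). The other genes kept their order. In FPKM, Il17rc exceeded Il17ra 4.24 ± 0.445-fold alone and 3.94 ± 0.247-fold with Th17 cells, and these ranges overlapped. In CPM, which do not divide by length, the means were 32.4 and 26.4 alone and 28.6 and 24.9 with Th17 cells. The FPKM ratio of Zc3h12a to its known substrate Nfkbiz was 0.824, 0.841 and 0.827 in the lone libraries. In the cocultured libraries it was 2.21, 1.93 and 1.64. In counts, Nfkbiz stayed the higher of the pair in each cocultured library, at 3668, 4119 and 4820 against 3473, 3416 and 3385. Which gene of the pair was the more abundant with Th17 cells thus depends on the gene lengths behind the FPKM. The pairs set in ratio were chosen with their values known.

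**Figure D3:**
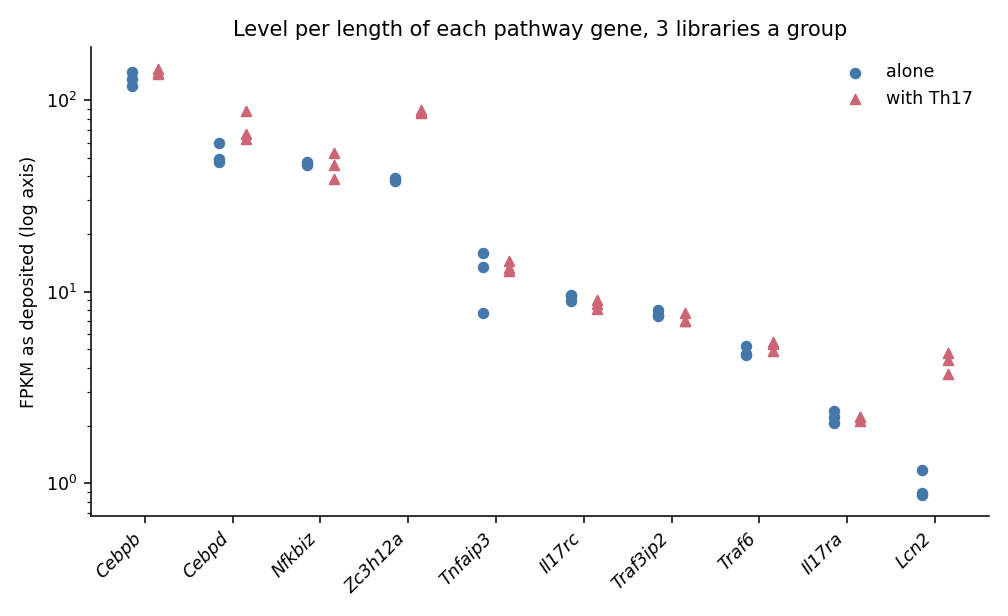
Deposited FPKM (vertical log axis) of the 10 genes in each library, ordered by their mean in fibroblasts alone; blue circles are the 3 libraries alone and red triangles the 3 with Th17 cells. Zc3h12a rises from 38.5 to 86.9 FPKM and Lcn2 from 0.977 to 4.29 FPKM on average, while both receptor chains stay below 10 FPKM in every library.

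Beside the 10 genes, 75 others of the pathway were listed by role from textbook knowledge. Of the 65 that were tested, 27 rose and 13 fell, against 17.1% and 20.0% of all genes, and their median log2 fold change was 0.17. These shares over all genes are the ones to set beside the counts of each list below. The lists were drawn up with earlier results of these data known. Of the IL-17 cytokines, Il17a, Il17b, Il17f and Il25 had no count in any library, Il17c had at most 2 counts in a library, and Il17d had 11 to 33 counts and did not pass the test (log2 fold change 0.46, edgeR adjusted p = 0.42). The fibroblast libraries thus held no counted transcript of IL-17A or IL-17F. A count of 0 allows up to 3 counts, which is 0.223 to 0.254 CPM here. Leaving out single libraries gave Il17d log2 fold changes of 0.16 (without lone replicate 1) to 1.13 (without lone replicate 3). In 1 of these fits it was called (adjusted p = 0.0397 by edgeR). Of the other receptor chains, Il17rb and Il17re had at most 1 count in a library. Il17rd, which encodes a modulator of receptor signalling, had 72, 79 and 66 counts alone and 117, 92 and 103 with Th17 cells, a rise of 0.45 on the log2 scale (with SE 0.147, adjusted p = 0.0395 by edgeR). When each library was left out in turn, that call held only without cocultured replicate 2, and without the others the adjusted p ran up to 0.115, without cocultured replicate 1. It was also lost by DESeq2 (adjusted p = 0.12) and with no filter on low counts (adjusted p = 0.0556 by edgeR).

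Of the 7 adaptors, ubiquitin ligases and Usp25, 2 rose and 2 fell. Traf4, whose product competes with TRAF6 for the adaptor, rose from 27.9 ± 1.08 to 43.8 ± 2.02 CPM (SD, n = 3 each) and Traf3, whose product blocks the receptor, from 22.8 ± 2.12 to 30.4 ± 2.10 CPM. Usp25, which encodes a deubiquitinase that dampens IL-17 signals, fell from 244.5 ± 8.96 to 127.4 ± 10.7 CPM (log2 fold change -0.94 with SE 0.0737, adjusted p = 1.21e-05 by edgeR), and Traf2 fell from 33.0 ± 0.957 to 26.2 ± 0.592 CPM. These genes encode restraints on the pathway (Traf4, Traf3, Usp25) and a protein that takes part in stabilising messenger RNAs (Traf2), and those that rose and those that fell included restraints. All 4 calls held when any 1 library was left out.

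Of the 9 genes for kinases leading to NF-κB and for their binding partners, 2 rose and 2 fell. Ikbkg, the regulatory subunit of the IκB kinase, rose most, from 279, 316 and 277 counts to 506, 711 and 560 (log2 fold change 0.96 with SE 0.144, adjusted p = 0.000795 by edgeR). It overlaps G6pdx on the opposite strand, which held 8705 counts over the 6 libraries, so its value is uncertain. The catalytic subunit Chuk rose by 0.62 on the log2 scale (edgeR adjusted p = 0.000218), while its partner Ikbkb fell by 0.29 (adjusted p = 0.0264), a call that held only without cocultured replicate 3 when single libraries were left out, and that was lost with no scaling factor beyond library size (adjusted p = 0.0655) and by limma on log2(FPKM + 1) (adjusted p = 0.155). Tbk1, a related kinase, fell by 0.53 (adjusted p = 0.000328). The lowest value was that of Map3k7, the kinase upstream of the complex, at -0.55 (with SE 0.22, adjusted p = 0.079 by edgeR). Its counts were 1594, 751 and 873 with Th17 cells against 1410 to 1540 alone, and without cocultured replicate 1 it was called, at -0.93 (adjusted p = 7.12e-05), as it was with no filter on low counts (-0.55, adjusted p = 0.0452).

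Of the 10 transcription factor genes, Nfkb1 rose most, with 2298, 2330 and 2152 counts alone and 4629, 4638 and 4959 with Th17 cells. Nfkb1 encodes the precursor of the p50 subunit of NF-κB, and its log2 fold change was 0.996 (with SE 0.0588, adjusted p = 1.85e-06 by edgeR). The others that rose were Nfkb2, by 0.27 (edgeR adjusted p = 0.0107, and 0.0516 without lone replicate 3), and Cebpd. None fell (0 by edgeR), and the lowest value was that of Cebpg, at -0.22 (edgeR adjusted p = 0.139), which without cocultured replicate 1 was called, at -0.34 (adjusted p = 0.0246).

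Of the 13 genes of feedback by IκB proteins and deubiquitination, Tnfaip3 included, 5 rose and 1 fell. Those that rose and kept the call without any 1 library were Tnip1 (log2 fold change 0.71) and Rnf11 (0.64), which encode partners of the Tnfaip3 enzyme, and Cyld (0.44), a deubiquitinase. The highest value was that of Nfkbid, a nuclear IκB protein, with 17, 24 and 19 counts alone and 50, 37 and 27 with Th17 cells (log2 fold change 0.85, edgeR adjusted p = 0.0487). Its call held only without cocultured replicate 3, with an adjusted p of up to 0.167, without cocultured replicate 1, and was lost by DESeq2 (adjusted p = 0.0971) and with no filter on low counts (adjusted p = 0.051 by edgeR). Nfkbib rose by 0.29 (edgeR adjusted p = 0.0403) and Nfkbia, the classical inhibitor that NF-κB induces, fell by 0.29 (adjusted p = 0.0254). Nfkbib lost the call without lone replicate 1 or 3 or cocultured replicate 2 or 3 (adjusted p up to 0.145), and Nfkbia without lone replicate 2 or 3 or cocultured replicate 2 or 3 (adjusted p up to 0.0917). The call of Nfkbib was also lost by DESeq2 (adjusted p = 0.0735) and with no filter (0.054 by edgeR), and that of Nfkbia with no scaling factor beyond library size (0.0633) and by limma on log2(FPKM + 1) (0.0593). Nfkbib overlaps Sirt2 on the opposite strand, which held 5880 counts. The lowest value was that of Tnip3, with 20, 19 and 19 counts alone and 7, 15 and 5 with Th17 cells (log2 fold change -1.16, edgeR adjusted p = 0.0526, and -1.76 with adjusted p = 0.0111 without cocultured replicate 2). Tnip1 and Rnf11 thus rose while Tnfaip3 did not pass the test, and the difference between them was not tested.

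Genes that set the lifetime of messenger RNAs were next. Of 11 tested, 2 rose, Zc3h12a and, by 0.28 on the log2 scale (edgeR adjusted p = 0.00796), Elavl1, whose product stabilises messenger RNAs. The paralogues of Zc3h12a that were tested, Zc3h12b and Zc3h12c, did not pass the test in any of 14 alternatives. Arid5a, which encodes an RNA-binding protein that protects inflammatory messenger RNAs from the Zc3h12a enzyme, fell most, with 476, 336 and 437 counts alone and 92, 178 and 202 with Th17 cells. This was a fall from 33.5 ± 6.01 to 12.1 ± 4.58 CPM (SD, n = 3 each), with a log2 fold change of -1.47 (with SE 0.262, adjusted p = 0.00205 by edgeR), and the groups did not overlap. Zfp36l2, a decay factor, fell by 0.42 (adjusted p = 0.00341). The decay enzyme rose and its known antagonist fell in the same libraries.

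**Figure D4:**
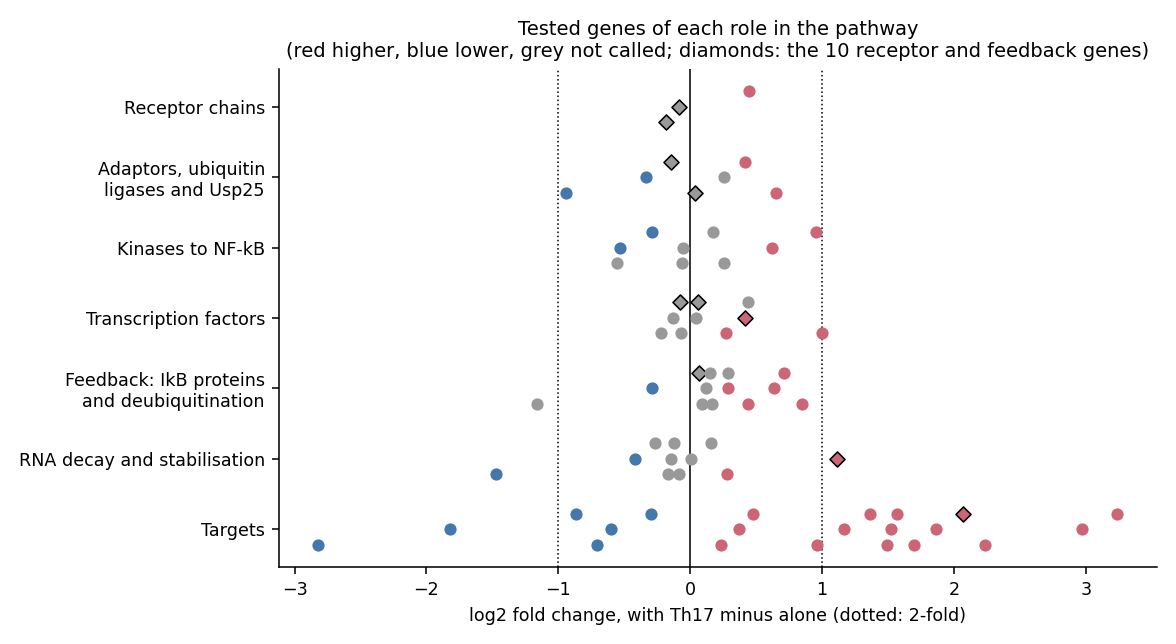
Log2 fold change, with Th17 cells minus alone (horizontal axis), of each tested pathway gene except Il17d, arranged by role; vertical shifts within a role only separate the points. Red points rose and blue points fell by edgeR at an adjusted p below 0.05, grey points did not pass, diamonds are the 10 genes and dotted lines mark 2-fold. The receptor chains and adaptors stay within 2-fold, and the targets spread from -2.82 to 3.24.

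The 23 targets of IL-17 in stromal cells, Lcn2 included, had the highest median of these lists. Of 21 tested, 15 rose and 6 fell, 11 and 2 of them by more than 2-fold, and their median log2 fold change was 1.16. Of all genes tested, 17.1% rose and 20.0% fell, and 3.87% and 7.78% did so by more than 2-fold. The targets were listed with earlier results of these data known. Among the neutrophil-attracting chemokines, Cxcl3 rose from 10.1 ± 1.59 to 95.6 ± 11.5 CPM (log2 fold change 3.24, SE 0.135), Cxcl2 from 13.8 ± 0.512 to 50.3 ± 15.96 CPM, Cxcl5 from 290.0 ± 11.6 to 817.0 ± 132.0 CPM and Cxcl1 from 338.0 ± 15.9 to 756.9 ± 192.4 CPM (SD, n = 3 each). These chemokine genes are similar in sequence, and the treatment of fragments matching more than 1 of them was not stated. The growth factors Csf2 (5.35 ± 0.929 to 25.1 ± 8.80 CPM), Csf3 (4.34 ± 1.02 to 11.2 ± 3.09 CPM) and Lif (297.5 ± 2.44 to 854.9 ± 26.7 CPM) rose with them (SD, n = 3 each). So did the collagenase gene Mmp13 (log2 fold change 2.97) and the prostaglandin synthesis genes Ptgs2 (1.70) and Ptges (1.57). Lcn2 was the fourth highest of the 21.

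The targets that fell by more than 2-fold were Nos2 and Ccl20. Nos2, which encodes inducible nitric oxide synthase, fell from 501.7 ± 23.9 to 141.7 ± 15.9 CPM (log2 fold change -1.82 with SE 0.0872, adjusted p = 4.94e-07 by edgeR). Ccl20, a chemokine for cells that carry CCR6, had 30, 31 and 35 counts alone and 0, 5 and 9 with Th17 cells (log2 fold change -2.82 with SE 0.569, adjusted p = 0.00412 by edgeR). Saa3 (log2 fold change -0.86, edgeR adjusted p = 0.00782), C3 (-0.71, 0.000126), Steap4 (-0.60, 0.0277) and Mmp3 (-0.30, 0.0256) fell by less than 2-fold. Saa3 and C3 were called in all 14 alternatives, Steap4 in 10 and Mmp3 in 7. The targets that rose by less than 2-fold were Mmp9 (log2 fold change 0.96), Ccl7 (0.48), Il6 (0.37) and Ccl2 (0.24). Of the antimicrobial targets related in use to Lcn2, S100a8 had at most 6 counts in a library and S100a9 none, so both were not tested. Of the macrophage markers, 5 of 6 tested were lower with Th17 cells as well, though not Cd14 (log2 fold change -0.0005), and their part in the falls of these targets was not tested.

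**Figure D5:**
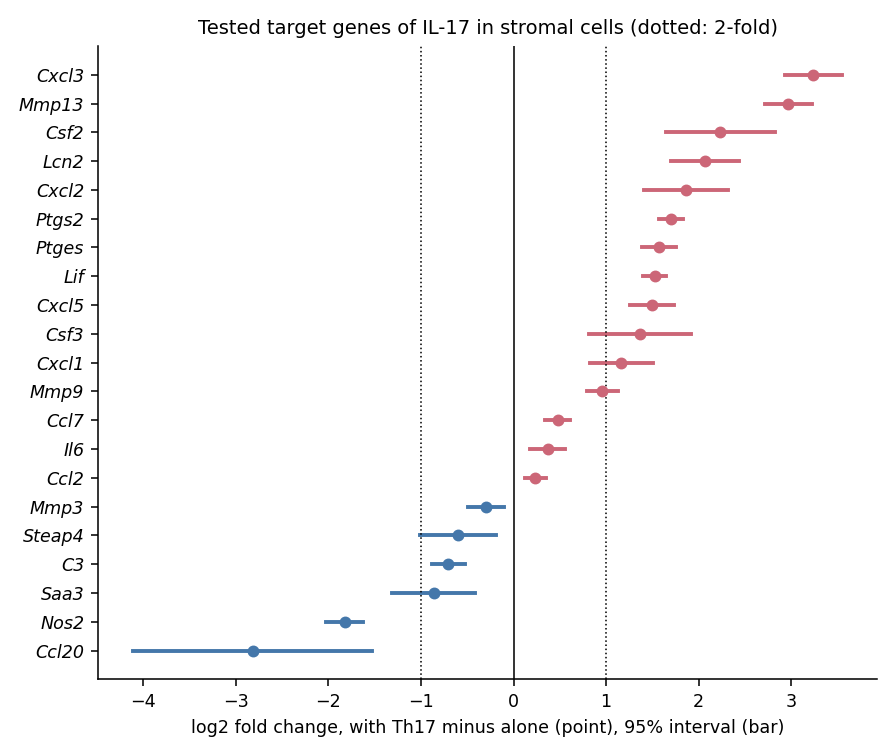
Log2 fold change, with Th17 cells minus alone (horizontal axis), of the 21 tested targets as points with 95% intervals from the edgeR fit over 3 libraries a group; red rose, blue fell, and dotted lines mark 2-fold. Cxcl3 (3.24), Mmp13 (2.97), Csf2 (2.23) and Lcn2 (2.07) are highest, and Ccl20 (-2.82) is lowest with the widest interval.

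For the 2 genes that rose more than 2-fold, the 3 genes of most similar pattern were sought among 10036 genes whose higher group averaged 100 counts or more, by Euclidean distance between centred log2 CPM over the 6 libraries. Nearest to Zc3h12a were Rgs16 (distance 0.0885), which encodes a regulator of G protein signalling and had 7809 to 8534 counts alone and 17704 to 18649 with Th17 cells, followed by Fchsd2 (0.0947) and the profilin gene Pfn2 (0.117). Nearest to Lcn2 were the proprotein convertase gene Pcsk5 (0.26), with 236 to 304 counts alone and 1213 to 1295 with Th17 cells, the glycosyltransferase gene A4galt (0.295) and the cadherin gene Cdh6 (0.315). With 2 groups, such distances mainly compare the size of the change, and the 3 neighbours of Lcn2 changed by 1.86 to 2.13 on the log2 scale.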

How the data were processed

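Per the methods and the submitters' processing notes, the authors ran Seqtk for read quality, HISAT2 2.0.4 for alignment and StringTie 1.3.3b for counting of fragments per gene, on mm10 (GRCm38). The authors deposited raw counts for each gene and library, with FPKM values beside them. In all 10223 genes with at least 50 counts in every library, count and FPKM implied 1 gene length within 1%, so FPKM values carry no TMM factor. Whether counting used strand, and how fragments fitting several genes were assigned, was not stated in the sources used here. Samples were grouped by their titles.

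Counts were fitted in R 4.3.3 with edgeR 4.0.16 (filterByExpr with minimum count 10, TMM, glmQLFit, glmQLFTest), with Benjamini-Hochberg adjustment over 13088 genes. Genes were called at an adjusted p below 0.05 alone, and changes of more than 2-fold were given separately. The study's methods also used TMM and edgeR, but required both an FDR below 0.05 and a fold change above 2. The SE is the log2 fold change divided by the square root of F, and intervals use the fit's degrees of freedom. The common dispersion was 0.0136, a coefficient of variation of 11.7%. Floors of 3 counts reflect counting error alone, since the fragments carried no molecular identifiers. For 59 symbols on several rows, the row with most counts was used. No pair of libraries agreed within sampling noise (chi-square per gene at least 6.07 within and 74.9 between groups). On simulated counts for 13088 genes with 200 changed, edgeR recovered 98% of changes of 2 and 88% of changes of 1 on the log2 scale. It also called 12 unchanged genes. Every simulated gene had the common dispersion, and far fewer genes changed than the 37.1% called in the data, so recovery in the data may differ.

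The genes, lists and motifs were chosen with earlier results of these data known, so no test was run over a list. Named were the 10 genes, list members called with over 2-fold change, and the highest and lowest of each list; the other list genes named, and cell type markers, were chosen after their values were seen. Positions are as the table gives them; GENCODE M21 places the end of Cebpd at 15891031. Alternatives were DESeq2 1.42.0, other scaling factors and filters, leaving out each library, a replicate block and limma 3.58.1 on log2(FPKM + 1). Figures were drawn with matplotlib 3.10.9 in Python 3.11.15.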

Additional observations from a re-analysis of the deposited data

How the results depend on the processing

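Over all 13088 genes, 2244 rose and 2612 fell at an adjusted p below 0.05, and 506 and 1018 did so with a fold change above 2. Of the 10 genes, 3 rose under every other scaling, filter and tool, and 2 without lone replicate 1, lone replicate 2, cocultured replicate 2 or cocultured replicate 3, where Cebpd lost its call; 0 fell under any. Zc3h12a ranged from 1.09 to 1.18, Lcn2 from 1.42 (limma on log2(FPKM + 1)) to 2.23 (without lone replicate 2) and Cebpd from 0.26 to 0.52 on the log2 scale. Of the 65 other pathway genes tested, 24 to 32 rose and 9 to 14 fell over the alternatives, with up to 70 tested without a filter. With the replicate number as a block, 3 of the 10 genes rose and 0 fell, 24 and 13 of the other pathway genes did, and 2053 and 2460 of all genes did. Among the list genes named, the block ended the calls of Il17rd (adjusted p = 0.0806), Nfkbid (0.0825) and Nfkbib (0.0606) and gave Map3k7 one (0.0343). Deviations of same-numbered libraries correlated at 0.0157, -0.0256 and -0.0036, which cannot show whether the numbers pair the libraries. The ratio of FPKM with Th17 cells to alone was 2.26 for Zc3h12a, and 2.16 in TMM-normalised CPM. With 3 libraries a group, changes as small as the intervals of the 7 genes without a call could not be told from 0.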
